A study of Homo sapiens with 6 samples.

Results

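The 10 glutathione transferase genes GSTP1, GSTA1, GSTA4, GSTM2, GSTM3, GSTM4, GSTO1, GSTK1, MGST1 and MGST3 were followed in RNA-seq libraries of ME180, an established human line from an epidermoid carcinoma of the cervix. They were chosen by gene symbol, all 10 were among the 18358 genes of the deposited table, and GSTP1 is the gene that the study's title names. In 3 libraries, labelled sgVPS13C, the genotype is given as VPS13C knockout, VPS13C being a bridge-like lipid transfer protein, and in 3 the cells carried the vector. Cells of both groups had been exposed for 48 h to 2 µM cisplatin, which damages DNA by platinum crosslinks, so no untreated baseline enters the comparisons. The labels state neither whether the sgVPS13C cells were a clone or a pool nor whether replicates came from separate cultures, so the spread behind each p-value may be technical only.

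Glutathione transferases join the thiol of glutathione to electrophilic compounds, which are then pumped out of the cell and trimmed to mercapturates. The soluble enzymes fall into classes named by Greek letters (pi, alpha, mu, omega and others), the kappa enzyme lies in mitochondria and peroxisomes, and the microsomal enzymes belong to a separate family of membrane proteins. GSTP1, the pi class enzyme, is abundant in many epithelial tumours, and its protein also binds signalling proteins such as JNK and TRAF2. The antioxidant response element, bound by the transcription factor NRF2 with a small MAF protein, is a known control site of several genes of the family.

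Promoters are shown for GSTP1, which had the highest level of the 10, and for GSTA4, which had the smallest adjusted p. Each is the RefSeq sequence on GRCh38.p14 from 250 bases before the transcription start to 50 bases after it, with the core of the antioxidant response element (TGACNNNGC, searched on both strands) in capitals.
GSTP1 (chr11:67583562-67583861, plus strand): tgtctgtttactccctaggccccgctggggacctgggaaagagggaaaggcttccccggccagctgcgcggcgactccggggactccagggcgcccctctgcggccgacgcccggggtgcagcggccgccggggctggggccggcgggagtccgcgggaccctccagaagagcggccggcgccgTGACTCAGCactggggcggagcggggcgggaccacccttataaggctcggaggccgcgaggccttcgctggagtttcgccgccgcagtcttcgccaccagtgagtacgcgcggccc
GSTA4 (chr6:52995235-52995534, minus strand): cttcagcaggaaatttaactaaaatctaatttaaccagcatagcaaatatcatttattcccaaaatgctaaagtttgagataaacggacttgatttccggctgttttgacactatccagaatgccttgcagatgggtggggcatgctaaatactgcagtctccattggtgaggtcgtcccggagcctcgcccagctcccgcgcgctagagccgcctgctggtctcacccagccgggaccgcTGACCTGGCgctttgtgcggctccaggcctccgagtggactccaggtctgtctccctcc
The GSTP1 match, TGACTCAGC, began at position −66 from the start, and its first bases also matched the AP-1 motif TGANTCA. The GSTA4 match, TGACCTGGC, began at position −9. GSTO1 held matches at −226 and −161, and 1 of the MGST1 entries held one at 31. Thus 4 of the 12 promoter entries of the 10 genes had the core, against 13.3% of 35116 RefSeq promoter entries of the same length, and 1 of the 12 had the AP-1 motif, against 7.71%. These matches are letters in a window and were not measured for binding.

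A stretch of coding sequence is shown for GSTM2 and GSTM4, because these mu class genes lie next to each other on chromosome 1 and the reads were 50 bases long. It covers coding positions 101 to 218 of both genes on GRCh38, which lie within chr1:109668489-109669330 for GSTM2 and chr1:109656776-109657630 for GSTM4 on the plus strand, introns removed. Capitals mark the 2 bases that differ.
GSTM2: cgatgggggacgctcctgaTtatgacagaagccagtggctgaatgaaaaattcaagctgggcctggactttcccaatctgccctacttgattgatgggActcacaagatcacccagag
GSTM4: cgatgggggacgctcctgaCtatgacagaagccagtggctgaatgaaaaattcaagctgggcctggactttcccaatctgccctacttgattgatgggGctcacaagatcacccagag
Between the capitals lies a run of 78 identical bases, longer than a read. Over the whole 654 coding bases 583 were identical, or 89.1%. Of all 50-base windows in annotated transcripts, 21.5% of GSTM2, 13.3% of GSTM4 and 28.9% of GSTA1 also occurred in transcripts of genes elsewhere, mostly GSTM1 for GSTM2, GSTM5 and GSTM1 for GSTM4, and GSTA2 for GSTA1. The share was 2.1% for GSTO1, 1.95% for GSTM3 and 0 for GSTP1, GSTA4, GSTK1, MGST1 and MGST3. The split of counts among GSTA1, GSTM2, GSTM4 and their near copies is therefore uncertain. The near copies named here were themselves close to 0, with GSTA2 at 0 CPM in both groups, GSTM1 at 0.0438 ± 0.0759 CPM in sgVPS13C libraries and 0 in vector libraries, and GSTM5 at 0 CPM in sgVPS13C libraries and 0.0199 ± 0.0345 CPM in vector libraries (SD, n = 3 each). These values rest on the same split of counts, so they cannot show where the shared reads belong.

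Total gene counts per library ran from 14774065 to 15411001 in sgVPS13C libraries and from 15767003 to 15799149 in vector libraries. VPS13C itself, the check of the labels, had 28.6, 18.6 and 23.7 CPM (counts scaled to a common library size) in the sgVPS13C libraries, against 48.1, 30.1 and 35.0 CPM in the vector libraries. Its log2 fold change was −0.67 ± 0.22 (SE), short of the threshold of 0.05 (edgeR adjusted p = 0.0513). In TPM (per gene length) its groups overlapped, at 3.56, 1.73 and 2.66 in sgVPS13C libraries and 6.06, 2.94 and 3.71 in vector libraries. The 6 squamous and epithelial markers summed to 15790 to 19510 CPM in sgVPS13C libraries and 9763 to 12800 CPM in vector libraries. Of 6 markers of other cell types 5 were in the table, and they summed to 52.9 to 57.6 CPM in sgVPS13C libraries and 45.1 to 54.1 CPM in vector libraries, with PTPRC and PECAM1 at 0 CPM in every sgVPS13C library and at means of 0.0212 and 0.0627 CPM in the vector libraries. Of the 6 squamous and epithelial markers, KRT5, which carried most of the sum (means of 11760 CPM in sgVPS13C libraries and 6401 CPM in vector libraries), and KRT14 rose (log2 fold changes 0.88 and 1.34 in that order), while EPCAM fell with −0.72. KRT17, CDH1 and TP63 were not called, at −0.23, −0.13 and 0.56. Of the markers of other cell types, DCN rose with 4.28 (means of 3.78 CPM in sgVPS13C libraries and 0.188 CPM in vector libraries), and ACTA2 fell with −0.59. COL1A1, which carried most of their sum (means of 44.9 CPM in sgVPS13C libraries and 41.0 CPM in vector libraries), was not called, at 0.13. The part of these marker shifts in the results below was not tested. In bulk RNA, fewer cells of a type and less RNA per cell cannot be told apart.

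GSTP1 made up most of the family's RNA in both groups. On the TPM scale, which divides by gene length and allows genes to be compared, the 10 genes summed to 5338, 6570 and 5785 TPM in sgVPS13C libraries, against 4136, 4930 and 4495 TPM in vector libraries. On this scale every sgVPS13C total lay above every vector total, and the means differed 1.30-fold (5898 ± 624 TPM in sgVPS13C libraries and 4521 ± 397 TPM in vector libraries; SD, n = 3 each). Of all single genes tested, 19.8% stood apart upward in TPM. In CPM (not per length) the family totals of the groups overlapped, as did GSTP1 itself (1365 to 2320 CPM in sgVPS13C libraries and 1050 to 1638 CPM in vector libraries). GSTP1 supplied 85.5, 87.3 and 86.2% of the total in sgVPS13C libraries and 86.7, 87.7 and 87.7% in vector libraries, and the groups overlapped. Among all genes of a library, GSTP1 ranked 21st, 23rd and 22nd in sgVPS13C libraries, against 34th, 29th and 32nd in vector libraries.

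Below GSTP1 the order of levels was the same in every sgVPS13C library, with MGST3 in rank 2, then GSTK1, GSTO1, GSTM4, GSTA4, GSTA1, GSTM2, GSTM3 and MGST1. In the vector libraries GSTO1, GSTM4 and GSTA4 kept ranks 4, 5 and 6. MGST3 and GSTK1 exchanged ranks 2 and 3 among the vector libraries, where their levels overlapped, whereas they did not overlap in the sgVPS13C libraries. Ranks 7 to 10 in the vector libraries mixed GSTA1, GSTM2, GSTM3 and MGST1, all at or below 0.43 TPM. GSTM4 and GSTA4 came close in the sgVPS13C libraries, at 14.9 to 16.0 TPM and 10.3 to 14.3 TPM, and lay farther apart in the vector libraries, at 6.41 to 7.39 TPM and 1.16 to 1.51 TPM.

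**Figure D1:**
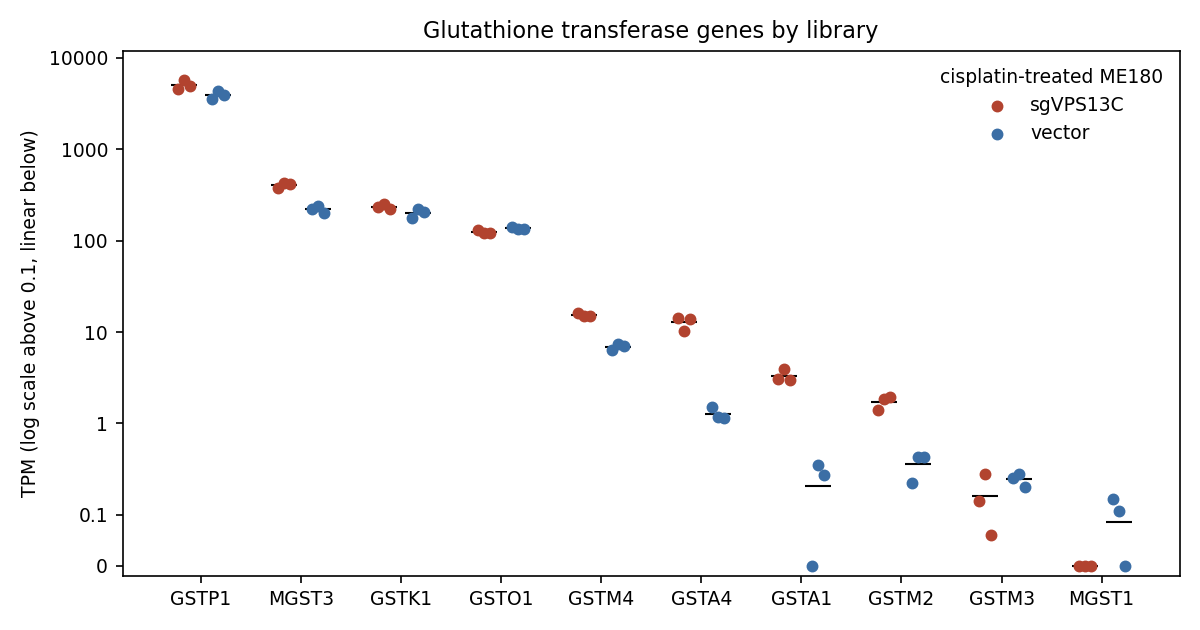
TPM of the 10 genes (log axis above 0.1, linear below) in each sgVPS13C library (red, left of each pair) and vector library (blue), with a line at the group mean. GSTP1 lies far above MGST3, and the groups overlap for GSTK1, GSTM3 and MGST1 and stand apart for the other 7 genes, narrowly for GSTP1 and, with sgVPS13C lower, for GSTO1.

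Of the 10 genes, 8 passed the filter on low counts and 2, GSTM3 and MGST1, did not. GSTA1 and GSTM2 passed only through their counts in the sgVPS13C libraries and so had to differ, which means that counts over the tested genes describe these genes and support nothing further. In the edgeR quasi-likelihood test across all 13717 genes tested, 5 of the 8 were called higher in sgVPS13C cells, 0 lower, and 3 (GSTP1, GSTO1 and GSTK1) were not called. Over all genes tested, 35.1% were called, 17.8% as higher and 17.4% as lower. The median log2 fold change was 1.03 over the 8 genes and 0.0042 over all genes tested.

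GSTP1 (gene 2950, chr11:67583812-67586653) had 1365, 2320 and 1635 CPM in sgVPS13C libraries 1 to 3, against 1050, 1638 and 1385 CPM in vector libraries 1 to 3. The ranges overlapped, with sgVPS13C library 2 the highest of the 6 and vector library 2 the highest of its group. The log2 fold change was 0.39 ± 0.24 (SE) and was not called (edgeR adjusted p = 0.266; exact two-sided permutation test on CPM, p = 0.5). On the deposited TPM scale GSTP1 had 4565, 5733 and 4985 TPM in sgVPS13C libraries, against 3586, 4323 and 3943 TPM in vector libraries. Here every sgVPS13C library lay above every vector library, with means of 5094 ± 592 TPM in sgVPS13C libraries and 3951 ± 369 TPM in vector libraries (SD, n = 3 each), a 1.29-fold difference. The exact two-sided permutation test on TPM gave p = 0.1, the lowest p that can be reached with 3 libraries in each group. Such separation upward was seen for 19.8% of all genes tested.

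**Figure D2:**
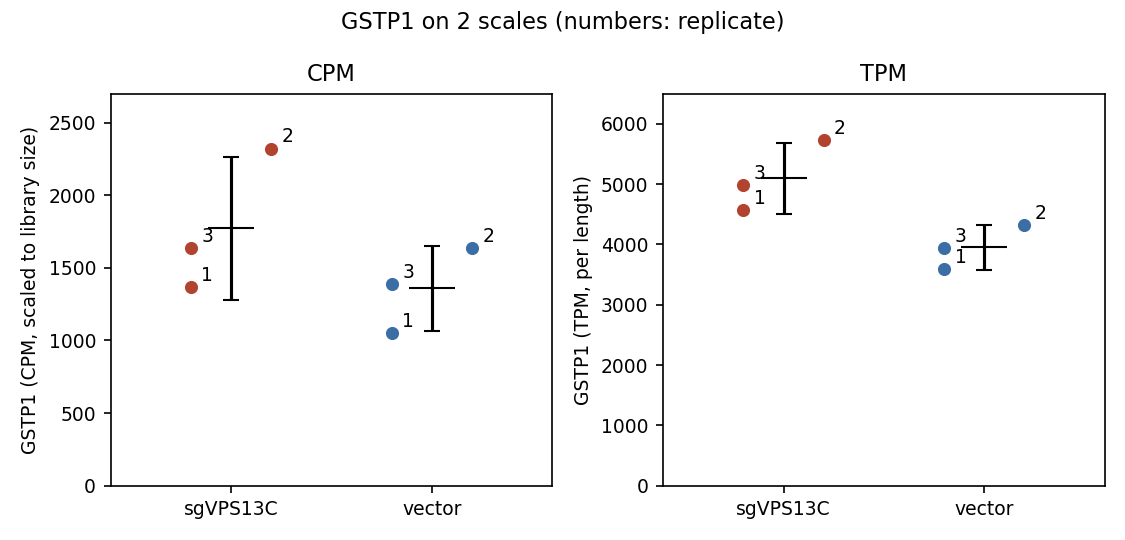
GSTP1 in CPM (left) and TPM (right) for sgVPS13C and vector libraries, numbered by replicate, with group mean and SD. The groups overlap in CPM (lowest sgVPS13C library 1365, highest vector library 1638) and not in TPM (4565 against 4323).

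The 2 scales differed in how library 2 of either group stood to the others. Between them lies a factor per library that is alike for short and long genes. TPM therefore does not remove a length trend between libraries. Within CPM, how the libraries stood to each other moved with gene length. Short genes, the 508 under 600 bases, had median log2 deviations from their own mean of −0.35, 0.36 and −0.11 in sgVPS13C libraries 1 to 3, and −0.26, 0.29 and 0.09 in vector libraries 1 to 3. Genes over 4000 bases deviated the other way, by 0.15, −0.14 and 0.06 in sgVPS13C libraries and by 0.15, −0.15 and −0.08 in vector libraries. GSTP1, with a length of 486 bases, is one of the short genes, as are MGST3 (426 bases) and GSTO1 (567 bases). Lengths here were worked out from the deposited counts and per-length values (FPKM) and are not annotated transcript lengths. With each library's length trend removed, GSTP1 had a log2 fold change of 0.43 ± 0.068 (SE) and was called higher (edgeR adjusted p = 0.00124), under a setting that called 46.6% of all genes. It was also called with limma on log2(TPM + 1), an alternative chosen after seeing the data, at 0.36 (limma adjusted p = 0.0485), where 24.7% of genes were called. Without sgVPS13C library 2 and with no length correction, it had a log2 fold change of 0.14 (edgeR adjusted p = 0.612). The fold change was thus similar with and without the correction, and the standard error was not.

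The genes whose CPM ran most like GSTP1 over the 6 libraries, among 4709 genes with a mean of at least 50 CPM, were TRMT112, COX5B, RPL10, ATP5PO and NDUFB7, with Pearson r from 0.997 to 0.999. Of these 5, all but RPL10 (1919 bases) had worked-out lengths of 286 to 569 bases, and so fall with GSTP1 among the short genes. Within the family, GSTK1 had r = 0.966 (rank 194), MGST3 0.826 (rank 766) and GSTO1 0.504 (rank 1587). These correlations describe 6 points that share depth and length effects.

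The alpha class genes differed most in proportion. GSTA4 (gene at chr6:52977953-52995284), whose enzyme acts on the lipid peroxidation product 4-hydroxynonenal, had 8.67, 8.44 and 9.38 CPM in sgVPS13C libraries, against 0.897, 0.907 and 0.825 CPM in vector libraries. Both groups were tight and lay far apart (8.83 ± 0.488 CPM in sgVPS13C libraries and 0.876 ± 0.0449 CPM in vector libraries; SD, n = 3 each). It rose, at a log2 fold change of 3.32 ± 0.16 (SE; edgeR adjusted p = 3.0e-05). DESeq2 gave a similar log2 fold change, 3.33, with a larger SE of 0.29. In TPM GSTA4 ran from 10.3 to 14.3 in sgVPS13C libraries, against 1.16 to 1.51 in vector libraries.

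GSTA1 (chr6:52791371-52803816), a major glutathione transferase of liver, was close to absent in vector cells. It had 28, 45 and 30 counts in sgVPS13C libraries, against 0, 4 and 3 counts in vector libraries. Every sgVPS13C library lay above every vector library, and the group sums of 103 and 7 counts gave a ratio of 15.7 (95% counting interval 7.37 to 40.1). The log2 fold change was 3.91 ± 0.58 (SE; edgeR adjusted p = 0.00243). Its size rests on few vector counts, and was 3.31 without vector library 1 and 4.53 without vector library 2, both still called. In CPM the means were 2.32 ± 0.753 in sgVPS13C libraries and 0.150 ± 0.134 in vector libraries (SD, n = 3 each). In TPM GSTA1 had 3.06, 3.93 and 2.97 in sgVPS13C libraries, against 0, 0.35 and 0.27 in vector libraries. Even in sgVPS13C cells GSTA1 was 0.0562% of the family's TPM and GSTA4 0.223%, against 0.00437% and 0.0287% in vector cells.

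The mu class genes sit in a cluster on chromosome 1. GSTM4 (chr1:109656099-109667727) had 11.4, 14.4 and 11.8 CPM in sgVPS13C libraries, against 4.42, 6.61 and 5.84 CPM in vector libraries. The lowest sgVPS13C library lay above the highest vector library, and the gene rose, at a log2 fold change of 1.16 ± 0.18 (SE; edgeR adjusted p = 0.00308). In TPM GSTM4 ran from 14.9 to 16.0 in sgVPS13C libraries, against 6.41 to 7.39 in vector libraries. GSTM2 (chr1:109668057-109683997), its neighbour, had 12.2, 20 and 20 counts in sgVPS13C libraries, against 2, 5 and 5 in vector libraries. These few counts did not overlap either, with a ratio of 4.64 (95% counting interval 2.44 to 9.54), a log2 fold change of 2.18 ± 0.43 (SE; edgeR adjusted p = 0.0077). In TPM GSTM2 ran from 1.39 to 1.93 in sgVPS13C libraries, against 0.22 to 0.43 in vector libraries. GSTM3 (chr1:109733937-109741038) stayed under the filter, with 4.98, 12.8 and 2.51 counts in sgVPS13C libraries, against 9.87, 13.1 and 8.94 in vector libraries. Its groups overlapped, and its counting ratio of 0.702 had a 95% interval of 0.385 to 1.26, so no difference was detectable at this depth. GSTM3 counts were fractional in all 6 libraries and GSTM2 counts in 1, and those of the other 8 genes were whole in every library.

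The omega and kappa enzymes, both at over 100 TPM, were not called. GSTO1 (chr10:104254173-104267455), which reduces dehydroascorbate and carries out thiol transfer, had 130.9, 121.4 and 121.4 TPM in sgVPS13C libraries, against 142.5, 134.9 and 134.7 TPM in vector libraries. Its CPM were 45.5, 57.9 and 46.3 in sgVPS13C libraries, against 48.9, 60.1 and 55.2 in vector libraries, where the groups overlapped. Its TPM values lay apart, lower in sgVPS13C cells, as did those of 21.9% of genes tested, and its log2 fold change was −0.13 ± 0.14 (SE; edgeR adjusted p = 0.489). GSTK1 (chr7:143263441-143269115) had 230.9, 252.8 and 222.3 TPM in sgVPS13C libraries, against 177.4, 224.6 and 206.7 TPM in vector libraries. Its groups overlapped through vector library 2, in CPM too (114.5, 169.0 and 120.7 in sgVPS13C libraries, against 86.04, 140.2 and 119.2 in vector libraries), and its log2 fold change was 0.23 ± 0.22 (SE; edgeR adjusted p = 0.463). With the length trend removed GSTK1 was called higher, at 0.26 (edgeR adjusted p = 0.0469).

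MGST3 (chr1:165631234-165656136), a membrane enzyme with glutathione transferase and peroxidase activity, was the most abundant of the 10 genes after GSTP1 in sgVPS13C cells, where it ranked 377th, 338th and 330th among all genes. It had 376.6, 431.6 and 422.1 TPM in sgVPS13C libraries, against 221.9, 237.6 and 201.9 TPM in vector libraries. The groups stood well apart, with means of 410 ± 29.4 TPM in sgVPS13C libraries and 220.5 ± 17.9 TPM in vector libraries (SD, n = 3 each). In CPM the libraries were at 99.0, 146.8 and 122.2 in sgVPS13C cells, against 57.3, 76.1 and 63.2 in vector cells, and the log2 fold change was 0.90 ± 0.17 (SE; edgeR adjusted p = 0.00701). MGST1 (chr12:16347115-16593331), the liver microsomal enzyme, had 0 counts in every sgVPS13C library, against 1, 1 and 0 in vector libraries. Both groups were at or under the floor of 3 counts per group (0.067 CPM for sgVPS13C and 0.0626 CPM for vector), so no fold is given.

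**Figure D3:**
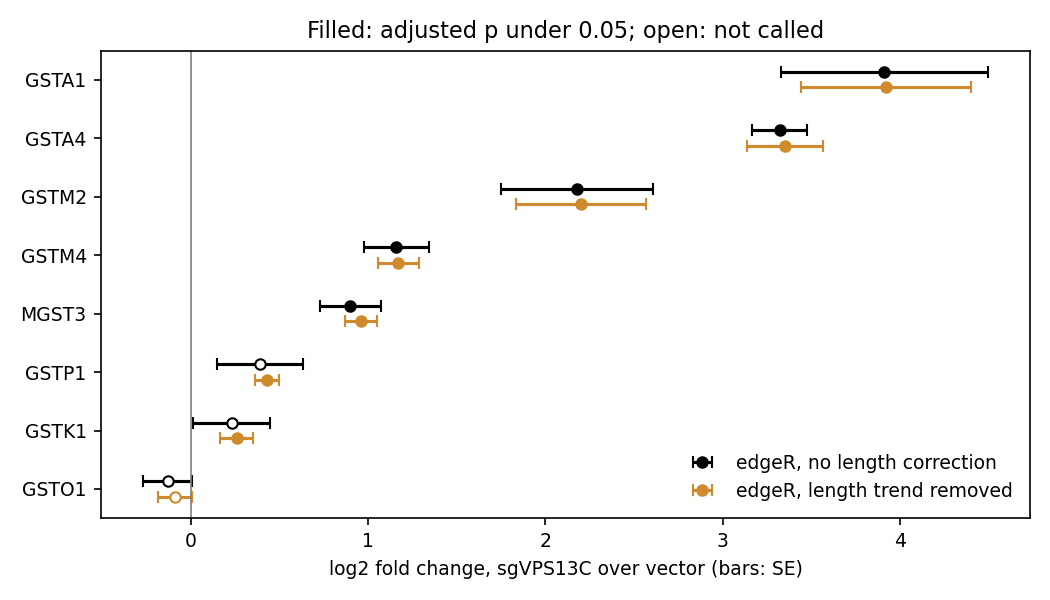
log2 fold change, sgVPS13C over vector, with its standard error for the 8 tested genes, without (black) and with (orange) the length trend removed; filled points have an adjusted p under 0.05. GSTP1 and GSTK1 go from open to filled while their position moves little, and GSTO1 is open in both.

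Separation of the groups depended on scale. In CPM the groups did not overlap for 5 of the 8 genes, all higher in sgVPS13C cells, against 48.5% of genes tested in either direction and 24.5% upward. In TPM they did not overlap for 7 of the 8, of which 6 were higher and GSTO1 lower. Of all genes tested, 41.6% stood apart in TPM, 19.8% upward and 21.9% downward. GSTA1 and GSTM2, which had to differ to be tested, are among the 5 and the 6, so these counts only describe the genes.

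By summed TPM, the difference of 1377 TPM between group means of the family came to 83.0% from GSTP1, 13.8% from MGST3 and 2.35% from GSTK1, while GSTO1 contributed −0.93%. GSTA4, GSTA1, GSTM2 and GSTM4, with larger folds (10.0, 16.1, 4.78 and 2.21 in TPM), added 0.843, 0.226, 0.0988 and 0.611%. The part of the family outside GSTP1 summed to 773, 837 and 800 TPM in sgVPS13C libraries, against 550, 607 and 552 TPM in vector libraries, a 1.41-fold difference of means. Within that part, MGST3 took 51.0 ± 2.09% in sgVPS13C libraries and 38.7 ± 1.93% in vector libraries, GSTK1 29.3 ± 1.30% in sgVPS13C libraries and 35.5 ± 2.89% in vector libraries, and GSTO1 15.5 ± 1.25% in sgVPS13C libraries and 24.2 ± 1.84% in vector libraries (SD, n = 3 each).

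**Figure D4:**
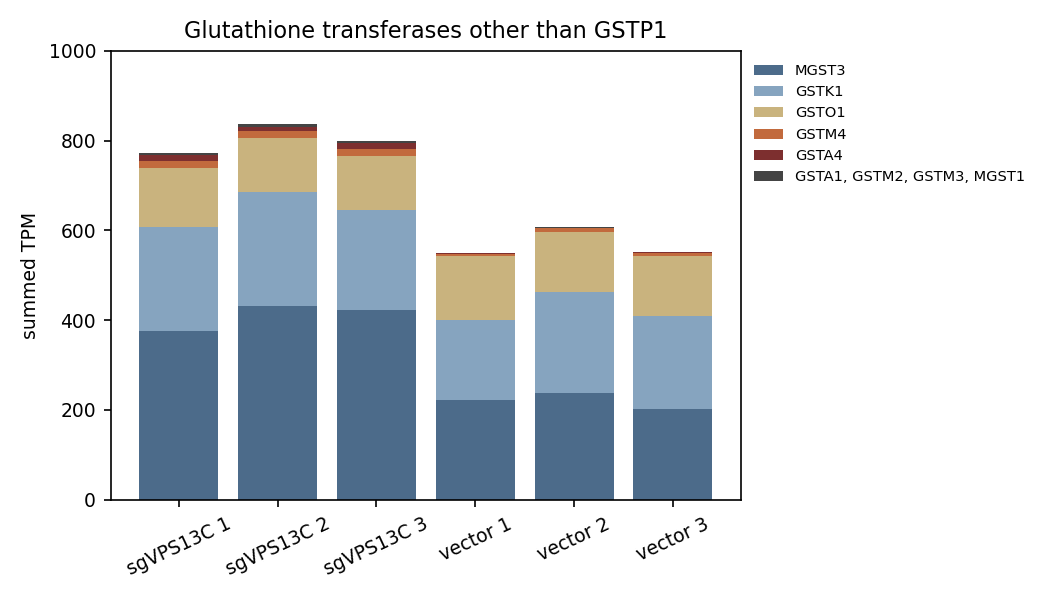
Summed TPM of the 9 genes other than GSTP1 in each library, stacked by gene. All 3 sgVPS13C bars (773 to 837 TPM) are taller than the vector bars (550 to 607 TPM), and most of the extra height is MGST3. Summed in CPM, the groups overlap narrowly.

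Of 29 RefSeq transcripts of the 10 genes in the deposited transcript table, 14 passed the filter and 1 was called higher, against 2.25% of all transcripts tested (1.17% higher). This was NM_001512.4 of GSTA4, at a log2 fold change of 3.09 ± 0.35 (SE; edgeR adjusted p = 0.0190). Its call was lost in a fit with the replicate number as a block. A further GSTA4 transcript, XM_011514534.3, had 7.59, 25.6 and 15.6 counts in sgVPS13C libraries and 0 in every vector library, and was not tested. The whole gene had only 15, 14 and 13 counts in vector libraries, so a transcript with a small share could be missed there. MGST3 was carried mainly by XM_005245174.3, which held 72.6 ± 3.86% of the gene's counts in sgVPS13C libraries and 71.7 ± 3.83% in vector libraries (SD, n = 3 each). That transcript (log2 fold change 0.92, edgeR adjusted p = 0.136) and NM_004528.4 (0.85, edgeR adjusted p = 0.0564) were not called singly. For GSTM4 the share of NM_000850.5 was 76.4 ± 3.92% in sgVPS13C libraries and 86.7 ± 7.86% in vector libraries, and for GSTK1 the share of NM_015917.3 was 81.1 ± 1.26% in sgVPS13C libraries and 81.9 ± 2.72% in vector libraries. GSTP1 had a single transcript in the table. Counts of transcripts were estimates from 50-base reads, so the split among them is less certain than the gene counts.

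Around the 10 genes, a wider list of 25 glutathione transferases had 24 in the table and 16 tested, of which 8 were called higher, 1 lower and 7 not at all, against 17.8% of all genes tested called higher and 17.4% lower. The 8 include the 5 called members, of which GSTA1 and GSTM2 had to differ to be tested. Its called genes outside the 10 were GSTT1 of the theta class (48.6 ± 13.0 CPM in sgVPS13C libraries and 24.0 ± 6.02 CPM in vector libraries; log2 fold change 1.02), MGST2 (0.72), GSTCD (0.67) and PTGES, a prostaglandin E synthase of the microsomal family (73.4 ± 7.16 CPM in sgVPS13C libraries and 140.4 ± 11.8 CPM in vector libraries; −0.94; SD, n = 3 each). The edgeR adjusted p were 0.0187, 0.0106, 0.0386 and 9.9e-04 in that order. The call of GSTT1 was lost without sgVPS13C library 3 or vector library 3 (edgeR adjusted p = 0.0522 and 0.0541), and that of GSTCD in 4 of the 6 fits that left out a library, with an edgeR adjusted p of up to 0.160.

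Of 18 tested genes that make, break down and recycle glutathione, 3 rose, 3 fell and 12 were not called, with a median log2 fold change of −0.24. These counts are close to the 17.8% higher and 17.4% lower of all genes tested. Those that rose were GGT6 and GGT1 of the gamma-glutamyltransferase family and OPLAH, which opens 5-oxoproline. GGT6 had 170.6 ± 19.7 CPM in sgVPS13C libraries and 74.3 ± 6.43 CPM in vector libraries (SD, n = 3 each), and the log2 fold changes of GGT1 and OPLAH were 1.09 and 1.05. Those that fell were GGT7 (−2.22), CHAC2, which degrades glutathione (−1.12), and CTH (−0.71), the last named after its values were seen. The call of CTH (edgeR adjusted p = 0.0499) was lost in each of the 6 fits that left out a library, with an edgeR adjusted p of up to 0.114. GGT1 has near-identical copies elsewhere in the genome, so its count is uncertain. The rate-limiting synthesis enzyme was not called in either subunit, with GCLC at −0.12 (edgeR adjusted p = 0.575) and GCLM at −0.26 (edgeR adjusted p = 0.291), nor was the cystine importer SLC7A11 at −0.35 (edgeR adjusted p = 0.213).

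Of 15 tested other enzymes that use glutathione, 2 rose and 1 fell, a smaller share than the 35.1% called among all genes tested. HAGH, which completes the glyoxalase pathway, and the peroxidase GPX2 both rose with a log2 fold change of 0.86, while GLO1, the first glyoxalase, fell with −0.48. The call of GPX2 was lost without sgVPS13C library 2, sgVPS13C library 3 or vector library 3 (edgeR adjusted p of up to 0.0713). Among 8 tested genes of conjugate export and mercapturate formation, 3 rose and 2 fell, against 17.8% higher and 17.4% lower among all genes tested. The exporter ABCC1, which pumps glutathione conjugates, had means of 184.5 CPM in sgVPS13C libraries and 113.9 CPM in vector libraries (n = 3 each; log2 fold change 0.70 ± 0.094 SE, edgeR adjusted p = 0.00146). ABCC5 and ABCC4 rose with 0.81 and 0.94, and ABCC3 and ABCG2 fell with −1.76 and −0.97. Leaving out single libraries ended the calls of ABCC4 in 3 of 6 fits and of ABCG2 in 5 of 6, with edgeR adjusted p of up to 0.0694 and 0.133.

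Of 10 tested genes for NRF2 and its regulators, 6 fell, 2 rose and 2 were not called, against 17.4% lower and 17.8% higher among all genes tested. Their median log2 fold change was −0.68, and the list as a whole was not tested. NFE2L2, which encodes NRF2, had 135.7 ± 13.6 CPM in sgVPS13C libraries and 185.9 ± 16.8 CPM in vector libraries (SD, n = 3 each; −0.45, edgeR adjusted p = 0.0206), and its call was lost without sgVPS13C library 3 or vector library 3 (edgeR adjusted p = 0.0702 and 0.0524). The small MAF genes MAFF and MAFK fell with −1.32 and −1.09, MAFG was also called lower, NFE2L3 fell with −0.94, and SQSTM1, whose protein draws KEAP1 into autophagy, fell with −0.87. The genes that rose were NFE2L1 (0.32) and CUL3 (0.54), named after their values were seen. In TPM the groups overlapped for NFE2L2 (65.6 to 107.8 in sgVPS13C libraries, 103.1 to 154.0 in vector libraries), NFE2L1 and CUL3. They stood apart for MAFF, MAFK, MAFG, NFE2L3 and SQSTM1. With limma on log2(TPM + 1), NFE2L2 and MAFG were not called (limma adjusted p = 0.181 and 0.0814). KEAP1, which targets NRF2 for degradation, had a log2 fold change of 0.24 (edgeR adjusted p = 0.258). Of 4 genes whose proteins bind GSTP1, 1 rose, 1 fell and 2 were not called, against 17.8% higher and 17.4% lower among all genes tested. MAPK9 (JNK2) rose with 0.50 and TRAF2 fell with −0.89, and both calls were lost when single libraries were left out (edgeR adjusted p of up to 0.0929 and 0.0660). MAPK8 and PRDX6, named after their values were seen, were not called, at −0.07 and −0.26 (edgeR adjusted p = 0.749 and 0.2635).

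**Figure D5:**
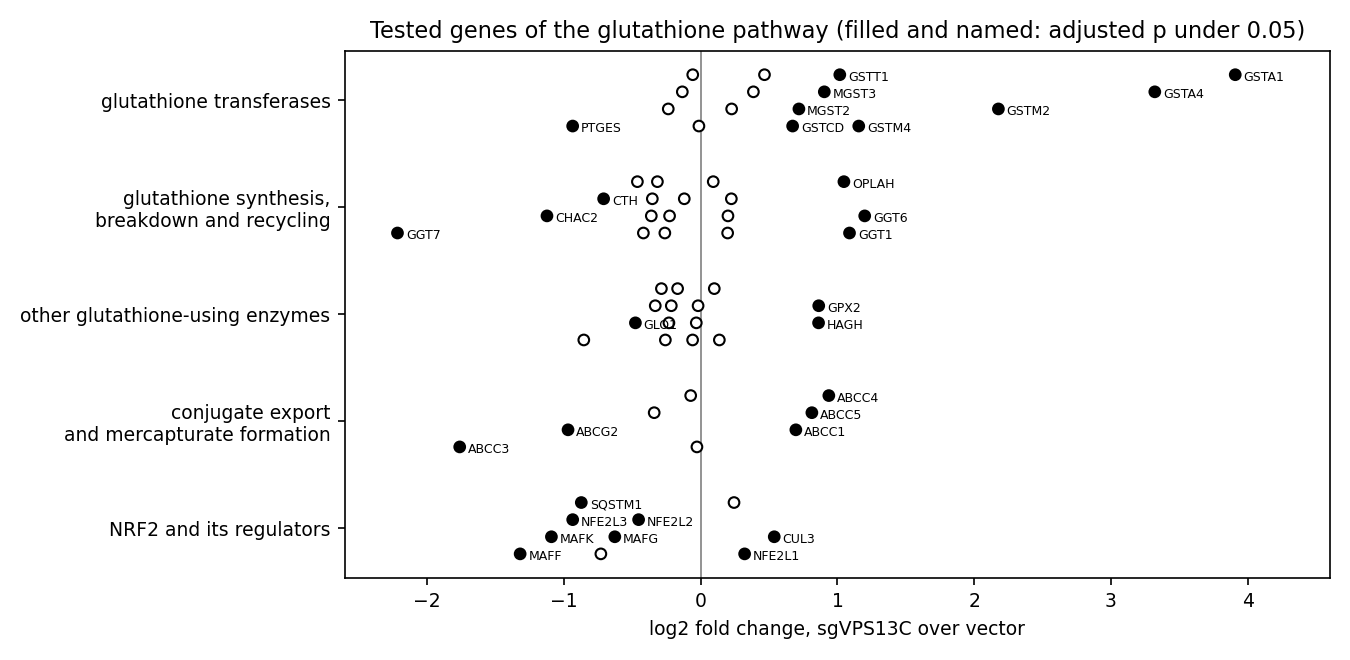
log2 fold change, sgVPS13C over vector, of the tested genes in 5 lists of the glutathione pathway; filled and named points have an adjusted p under 0.05, and the height of a point within its list has no meaning. Called transferases lie mostly to the right (8 higher, 1 lower) and called genes of the NRF2 list mostly to the left (2 higher, 6 lower). The other lists hold called genes on both sides. Of all genes tested, 17.8% were called higher and 17.4% lower. GSTA1 and GSTM2, among the 8, had to differ to be tested.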

How the data were processed

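RNA was sequenced as single-end 50-base reads on DNBSEQ, per the labels, against hg38, per the submitters' processing notes; the sources used here name no aligner, counting tool or strand setting. The authors deposited expected counts (estimated counts, in part fractional), FPKM and TPM per gene and transcript, and 18 further columns of per-library values were not used. Expected counts were rounded, filtered (filterByExpr, minimum count 10), scaled by TMM and tested with edgeR 4.0.16 quasi-likelihood tests in R 4.3.3, sgVPS13C over vector, with Benjamini-Hochberg adjustment over all genes or transcripts. An adjusted p under 0.05 is called. The SE of an edgeR log2 fold change is its absolute value divided by the square root of the F statistic. Such an SE can fall below counting error, as for GSTA4. CPM uses TMM-scaled library sizes. TPM served for levels, ranks and shares, and FPKM, as deposited by the authors, for gene lengths and an alternative. A gene's length was the median over libraries of the length that its count, FPKM and library total imply. Counting intervals (95%) and floors cover counting error only. Alternatives were other scaling and filters, DESeq2 1.42.0, limma 3.58.1 (voom, and log2 of FPKM or TPM plus 1), a replicate block, length trends (loess, span 0.4) and leaving out libraries. The members, lists, tests and alternatives were chosen with earlier results of these data known. Named genes were VPS13C, the 10 members, up to 6 called genes per list by smallest p, NFE2L2, KEAP1, GCLC, GCLM, SLC7A11 and ABCC1, and the 5 genes most like GSTP1. A gene of the glutathione synthesis, breakdown and recycling list is not reported here, and the counts and median of that list leave it out. The pipeline was tested on simulated data. Coordinates are from RefSeq GRCh38.p14. Figures used matplotlib 3.10.9.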

Additional observations from a re-analysis of the deposited data

How the results depend on the processing

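GSTA1, GSTA4, GSTM2, GSTM4 and MGST3 were called higher under every alternative in which they could be fitted (17, 17, 17, 18 and 18 alternatives), with edgeR, DESeq2 or limma adjusted p of at most 0.0146, 7.51e-04, 0.0360, 0.0169 and 0.0359 in that order. For GSTA1 and GSTM2 this says little of stability, since both rest on few vector counts. On the log2(FPKM + 1) scale, which understates changes of low genes, GSTA1, GSTA4 and GSTM2 had log2 fold changes of 1.53, 2.38 and 0.81, and on log2(TPM + 1) GSTA1 had 1.84 and GSTA4 2.60. With a filter of 10 CPM in 3 libraries, 2 of the 10 genes were called higher in place of 5, because fewer were tested. GSTO1 was called under none of 18 alternatives, and GSTK1 under 3. The log2 fold change of GSTP1 was positive under all 18 and passed the threshold under 4: 0.37 with the replicate block (edgeR adjusted p = 0.00198), 0.43 with the length trend removed (edgeR adjusted p = 0.00124), 0.43 with both (edgeR adjusted p = 5.29e-06) and 0.36 with limma on log2(TPM + 1), chosen after seeing the data (limma adjusted p = 0.0485). Without single libraries it ran from 0.14 to 0.54. VPS13C, short of the threshold above, was called lower under 8 of 18 alternatives. The share of GSTP1 in the family total moved to 84.0% in sgVPS13C libraries and 84.7% in vector libraries in CPM, which is not per length, and to 79.6% in sgVPS13C libraries and 80.2% in vector libraries over the whole list of transferases. Deviations of libraries numbered 1, 2 and 3 correlated between groups at 0.65, 0.68 and −0.22, and 4 of 6 libraries correlated best with their own number. The numbers thus matched libraries only in part. Whether the samples were paired cannot be told, since the labels state no pairing. With the replicate block 7939 genes were called in place of 4821, 8469 with the length trend also removed, and 0 member transcripts in place of 1. Leaving out sgVPS13C replicate 3 or vector replicate 3 left 3026 and 3103 genes called. Limits are 3 libraries per group, shared reads among near copies, and few counts for GSTA1, GSTM2, GSTM3 and MGST1.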
